A study of Mus musculus with 2 samples.

Results

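The motile cilium genes described here are 36 genes that encode parts of the beating axoneme, its dynein motors and radial spokes, or regulators of cilium formation, with some further genes used as marks of ciliated cells. They are a list of gene names, and all 36 were found among the 31053 genes of the count tables. They were measured in single lung cells of C57BL/6JRj mice by droplet RNA sequencing of transcript 3′ ends. The 4 groups were old LPS (18 months of age, 2.5 mg/kg lipopolysaccharide, a bacterial cell wall component that injures the lung), young LPS (3 months, 2.5 mg/kg), old control (18 months, saline) and young control (3 months, saline), all taken 24 h after treatment. In all groups the lungs were lavaged, digested with dispase with agarose in the airways, and freed of the filled airways before mincing, so the airway cells are those left after that step. Living cells that carried the epithelial surface protein EpCAM were then sorted. Each group had its own hashtag antibody, the 4 groups shared a lane, and the experiment was run on 2 lanes, which gave 2 libraries per group, numbered by lane. How many mice stand behind a library is not given in the labels, and the tests below therefore rest on the spread between these libraries, which may be partly technical.

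Motile cilia of airway epithelial cells beat to move mucus and trapped particles out of the lung. Each holds doublet microtubules around a central pair, and rows of outer and inner dynein arms slide the doublets past each other. Radial spokes and nexin links, spaced by a molecular ruler, coordinate the sliding, and tektins and other inner proteins stiffen the doublets. The transcription factor Foxj1 switches on much of this programme, and Rfx2 and Rfx3 bind a DNA element, the X-box, in the promoters of many cilium genes.

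The promoters of 5 members with some of the largest LPS differences in ciliated cells are shown first, from 250 bases before to 50 after the RefSeq start (build GRCm38.p6), 5′ to 3′ on the gene's strand, because they differ in whether they hold the core letters of an RFX site. Capitals mark GTTGCC or its reverse complement, which the Drc1 and Lrrc23 windows hold and the other 3 do not.
Sec14l3 (chr11:4064603-4064902, + strand): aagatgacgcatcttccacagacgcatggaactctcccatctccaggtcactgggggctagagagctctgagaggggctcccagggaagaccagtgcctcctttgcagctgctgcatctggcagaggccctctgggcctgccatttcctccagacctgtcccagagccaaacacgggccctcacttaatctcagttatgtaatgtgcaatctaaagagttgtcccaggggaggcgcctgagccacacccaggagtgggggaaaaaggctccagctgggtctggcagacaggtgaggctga
Dcdc2a (chr13:25055754-25056053, + strand): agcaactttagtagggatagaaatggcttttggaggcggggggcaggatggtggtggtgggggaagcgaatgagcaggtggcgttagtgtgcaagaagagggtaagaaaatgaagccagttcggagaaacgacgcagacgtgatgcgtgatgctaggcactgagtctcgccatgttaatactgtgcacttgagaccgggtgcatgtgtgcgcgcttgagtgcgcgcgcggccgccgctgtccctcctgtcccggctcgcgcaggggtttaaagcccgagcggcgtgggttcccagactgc
Capsl (chr15:9435778-9436077, + strand): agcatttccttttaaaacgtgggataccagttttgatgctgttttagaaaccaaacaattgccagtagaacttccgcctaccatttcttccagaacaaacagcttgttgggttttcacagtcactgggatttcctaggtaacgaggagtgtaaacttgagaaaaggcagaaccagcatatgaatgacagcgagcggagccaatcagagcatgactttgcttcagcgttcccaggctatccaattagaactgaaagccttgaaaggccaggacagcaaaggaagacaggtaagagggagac
Drc1 (chr5:30281143-30281442, + strand): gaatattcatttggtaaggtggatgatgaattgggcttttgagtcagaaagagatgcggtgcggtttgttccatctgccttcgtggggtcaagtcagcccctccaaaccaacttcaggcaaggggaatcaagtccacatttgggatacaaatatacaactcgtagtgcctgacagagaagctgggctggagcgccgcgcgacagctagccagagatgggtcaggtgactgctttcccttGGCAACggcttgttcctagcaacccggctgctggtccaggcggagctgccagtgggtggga
Lrrc23 (chr6:124779678-124779977, - strand): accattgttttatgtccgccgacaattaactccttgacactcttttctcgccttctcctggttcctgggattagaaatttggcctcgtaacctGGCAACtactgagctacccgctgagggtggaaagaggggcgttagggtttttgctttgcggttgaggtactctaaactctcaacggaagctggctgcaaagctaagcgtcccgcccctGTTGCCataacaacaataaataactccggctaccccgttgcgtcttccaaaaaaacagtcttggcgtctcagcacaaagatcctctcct
Of the 31 members with a RefSeq window, 16 (51.6%) held GTTGCC on either strand in at least 1 window, compared with 14.1% of 27025 genes. By window these were 17 of 37 member windows and 12.5% of 32851 windows. The motif lay in 4 of the 9 matched members that LPS changed at either age in the tests below, and in 12 of the 22 matched members that were not called. The longer paired X-box was searched on both strands as GTTNCC, then NN, then GGNAAC, whose first letters can overlap GTTGCC. With this spacing it was found in 0 member windows and in 0.529% of genes. Other spacings were not searched, so the 0 does not show that members lack paired sites. A window of 1110017D15Rik holds GTTGCC, then c, then GGCAAC, which the pattern cannot match. The forkhead letters TGTTTAC were in 1 of 31 members (3.23%, Cfap43) and in 4.05% of genes. These are matches of letters in fixed windows, not binding sites.

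The 8 libraries held 14048 cell barcodes and 85889264 unique molecular identifiers (UMIs), 6228266 to 15435789 per library, and 11232 cells remained after filtering. Cells were clustered with the members left out, and clusters were named from other marker genes. Although the tissue source is labelled AE2 cells (alveolar type II cells), the filtered cells included 7997 AE2-like cells (71.2%) and 904 ciliated-like cells (8.05%). All 13 ciliated-cell markers outside the member list, such as Pifo, Odf3b and Mlf1, were detected in at least 20% of the ciliated-like cells. Of 6 basal cell markers, 4 (Krt5, Krt14, Trp63 and Ngfr) had 0 UMIs there. Of 10 alveolar macrophage markers, 3 (Ear1, Marco and Siglecf) had 0 UMIs and 2 were detected in at least 20% of the cells. Markers of other lung epithelial cells were seen more widely. At least 20% of the ciliated-like cells held 7 of 11 AE2, 4 of 9 club or secretory and 3 of 8 alveolar type I cell markers. The ciliated-like cells numbered 266 and 101 in old LPS libraries 1 and 2, 92 and 59 in young LPS, 163 and 52 in old control, and 115 and 56 in young control. Their share of the cells was 4.73% to 15.3% in LPS libraries and 3.40% to 11.4% in control libraries, and within each group it was higher in lane 1. They fell into 2 clusters, of which cluster 9 held 460 of the cells from LPS libraries and 4 from controls, and cluster 11 held 58 from LPS libraries and 382 from controls, so the treated and control values below come mostly from different clusters of the same class. Levels below are per UMI of the ciliated-like cells alone.

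Members made up 2.41% to 2.55% of the UMIs of ciliated-like cells in LPS libraries and 2.76% to 3.01% in control libraries. Every ciliated-like cell held member UMIs. With cells thinned to 2000 UMIs (31 of 904 cells were shallower and left out), the median cell held 18 to 20.5 of the 36 members in LPS libraries and 21 to 22 in control libraries. Without thinning it held 28 to 30 and 28 to 30, at median depths of 5742 to 6769 and 4864 to 5264 UMIs per cell. Levels are given as CPM (UMI counts scaled to the same total in every library) summed over the ciliated-like cells of a library and scaled with TMM, with library 1 before library 2 in each group. Because 3′ UMIs count transcript ends, levels of different genes do not scale with gene length.

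**Figure D1:**
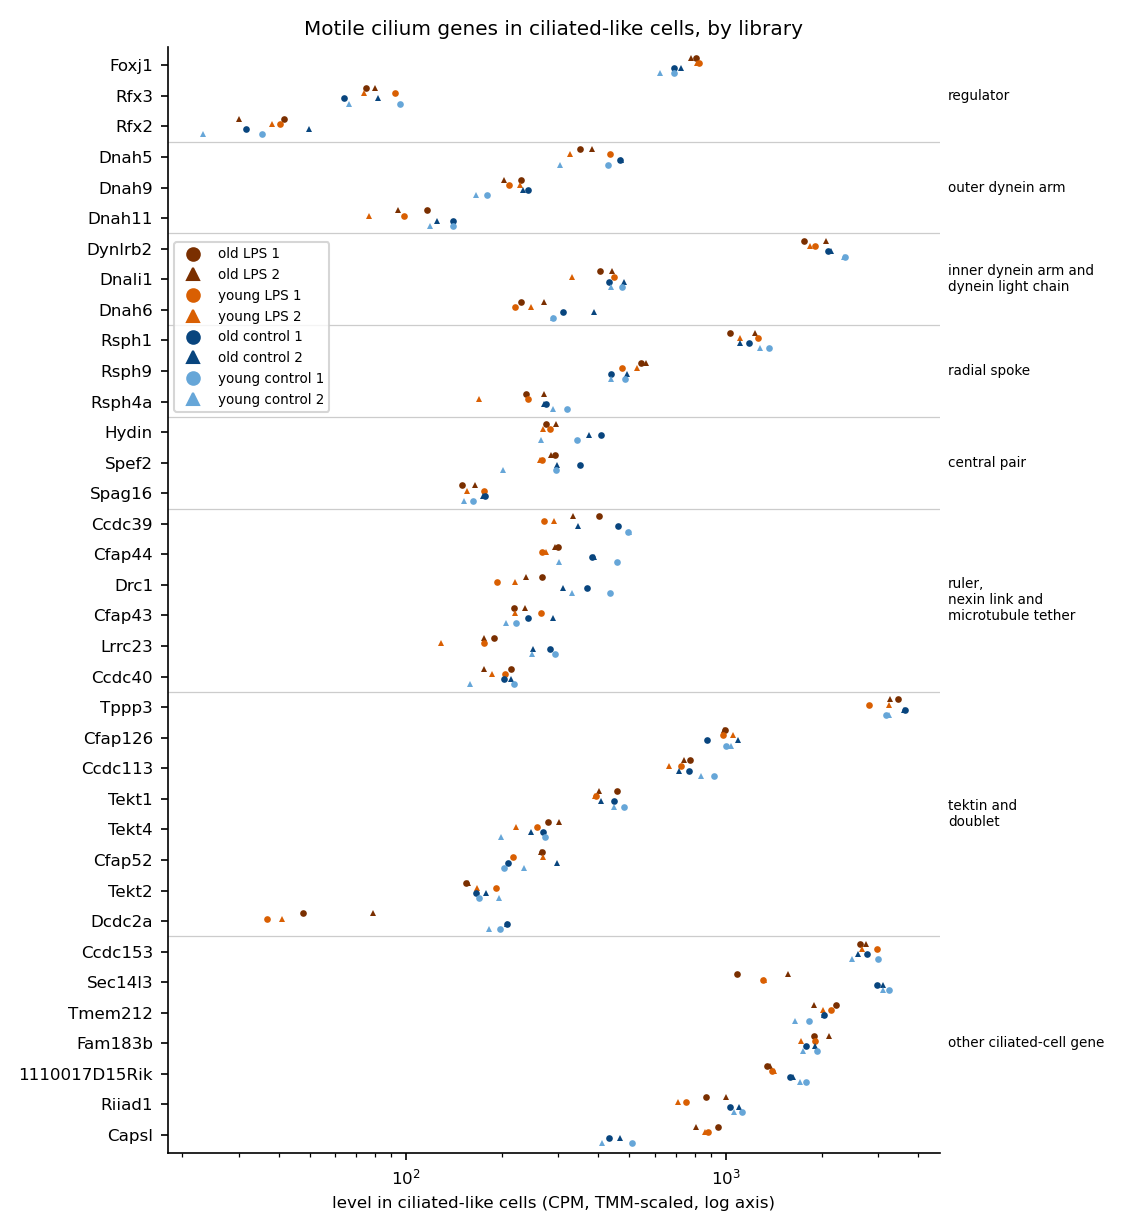
Level of each of the 36 members in ciliated-like cells (CPM, log axis), with 1 point per library, circles for lane 1, triangles for lane 2 and colours for the 4 groups; rows are sorted by role. The members span 36.3 (Rfx2) to 3309.9 CPM (Tppp3) as means of 8 libraries, and the LPS and control points separate for Sec14l3, Dcdc2a and Capsl.

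The most abundant member was Tppp3, a tubulin-binding protein, with 3468 and 3276 CPM in old LPS and 2806 and 3231 CPM in young LPS, against 3645 and 3623 CPM in old control and 3179 and 3250.5 CPM in young control. Ccdc153, a coiled-coil protein of ciliated cells, followed with 2639 and 2757 CPM in old LPS and 2984 and 2665 CPM in young LPS, against 2763 and 2599.8 CPM in old control and 3003 and 2479 CPM in young control. For both, the LPS and control libraries overlapped. Tmem212, a membrane protein, had 2208 and 1885 CPM in old LPS and 2136 and 2018 CPM in young LPS, against 2030.5 and 2036 CPM in old control and 1822 and 1645 CPM in young control. Fam183b stood at 1884 and 2108 (old LPS), 1900.4 and 1719.5 (young LPS), 1789.8 and 1904 (old control) and 1935 and 1748 CPM (young control). Cfap126 (Flattop), which sits on the doublets and helps place basal bodies, had 996 and 986 CPM in old LPS and 981 and 1058 CPM in young LPS, against 872 and 1091 CPM in old control and 1006 and 1043 CPM in young control. In these 3 genes too the groups overlapped, and none was called in any comparison of ciliated-like cells. Rsph1, a radial spoke head protein, had 1035 and 1231 CPM in old LPS and 1259 and 1113 CPM in young LPS, against 1182 and 1109 CPM in old control and 1369 and 1281 CPM in young control, again with overlap.

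Among the regulators, Foxj1 was far more abundant than the RFX factors. It had 809 and 782 CPM in old LPS and 825 and 812 CPM in young LPS, against 690.5 and 728 CPM in old control and 689 and 626 CPM in young control, so all 4 LPS libraries lay above all 4 control libraries. The differences were not called at either age (log2 fold change 0.17 ± 0.12 (SE) in old, adjusted p = 0.47, and 0.31 ± 0.12 in young, adjusted p = 0.137; edgeR quasi-likelihood test). Rfx3 had 75.3 and 80.2 CPM in old LPS and 92.7 and 73.8 CPM in young LPS, against 64.3 and 82 CPM in old control and 96.2 and 66.2 CPM in young control. Rfx2 had 41.6 and 30.1 CPM in old LPS and 40.6 and 38.3 CPM in young LPS, against 31.5 and 49.9 CPM in old control and 35.5 and 23.2 CPM in young control, which is 193 UMIs in all. Both RFX genes overlapped between treatments, and their log2 differences after LPS were 0.14 ± 0.23 and 0.02 ± 0.30 in old and -0.01 ± 0.25 and 0.35 ± 0.38 in young mice.

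After LPS, the largest fall was in Dcdc2a, which encodes a doublecortin-domain protein that binds microtubules in cilia. It had 47.8 and 78.7 CPM in old LPS and 36.7 and 41 CPM in young LPS, against 207 and 207 CPM in old control and 198 and 182 CPM in young control. No LPS library reached any control library, and the log2 fold change was -1.80 ± 0.20 in old (adjusted p = 8.14e-08) and -2.31 ± 0.26 in young mice (adjusted p = 8.28e-08). With cells thinned to 2000 UMIs, Dcdc2a was seen in 8.98% and 19.0% of old LPS and 10.0% and 7.27% of young LPS cells, against 42.4% and 33.3% of old control and 35.4% and 35.8% of young control cells. The share in AE2-like cells was 0.0127% after thinning. Without thinning, 42.0% of all ciliated-like cells and 0.0375% of AE2-like cells held a Dcdc2a UMI.

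Sec14l3, a lipid-binding protein of the Sec14 family found in airway ciliated cells, had the greatest fall in CPM. It had 1088 and 1564 CPM in old LPS and 1308 and 1318 CPM in young LPS, against 2984 and 3106 CPM in old control and 3239.5 and 3098 CPM in young control. The groups did not overlap, and the log2 fold change was -1.21 ± 0.13 in old (adjusted p = 8.14e-08) and -1.27 ± 0.13 in young mice (adjusted p = 2.49e-08). Sec14l3 lies beside close paralogues, and whether reads were split between them was not tested. Capsl, a calcium-binding protein related to calcyphosine, rose, the only member called higher at either age in these tests. It had 944 and 806 CPM in old LPS and 883 and 861 CPM in young LPS, against 431 and 467 CPM in old control and 508 and 410.4 CPM in young control. All LPS libraries lay above all control libraries, with a log2 fold change of 0.97 ± 0.13 in old (adjusted p = 3.48e-06) and 0.91 ± 0.14 in young mice (adjusted p = 1.38e-05). After thinning, Capsl was seen in 81.6% and 73.0% of old LPS and 75.6% and 81.8% of young LPS cells, against 55.1% and 70.8% of old control and 61.9% and 60.4% of young control cells, beside 0.493% of AE2-like cells. Without thinning these were 92.4% of all ciliated-like and 2.09% of AE2-like cells.

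**Figure D2:**
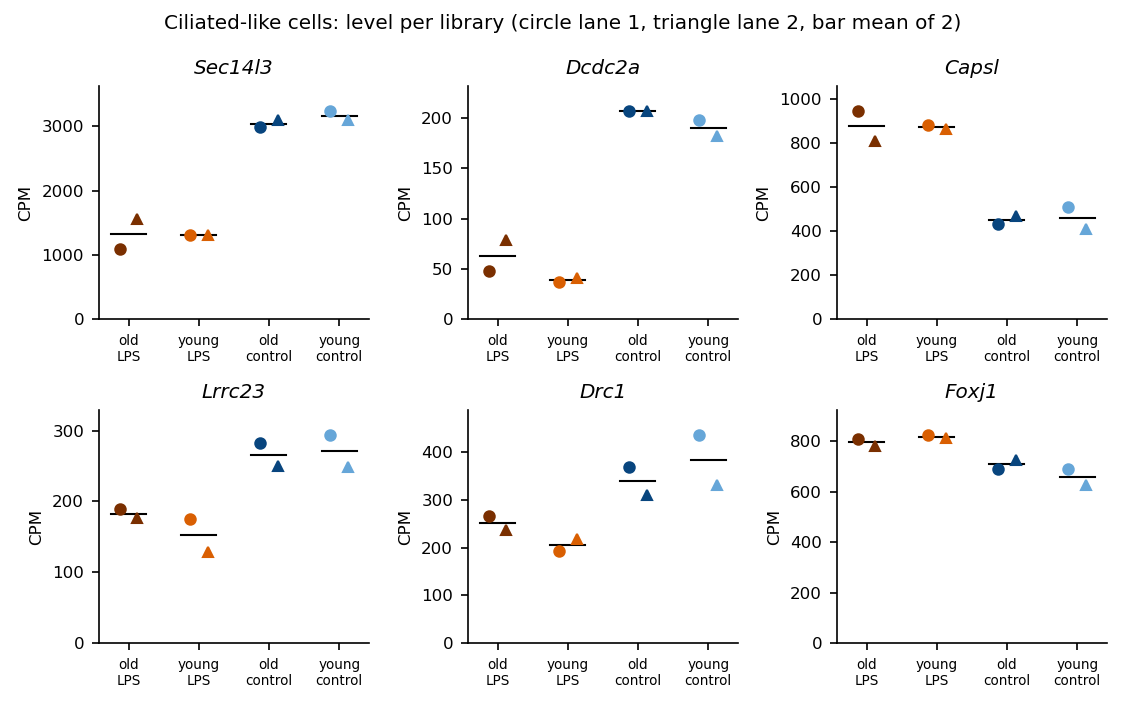
Level (CPM, axis from 0) of 6 members in ciliated-like cells of each library, circles for lane 1 and triangles for lane 2, with bars at the mean of 2 libraries. Sec14l3, Dcdc2a, Lrrc23 and Drc1 lay lower and Capsl and Foxj1 higher in all 4 LPS libraries than in the control libraries; Foxj1 was not called at either age.

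Of the 6 genes grouped here as those that space, link and tether the doublets, 1 fell in old and 4 fell in young mice. The shares of all genes tested were 3.53% and 3.28%. Lrrc23, a radial spoke component, was the 1 in old mice and is among the 4 in young mice. The group was set with earlier results of these data known, so these counts are a description. Drc1, of the nexin-dynein regulatory complex, had 266 and 238 CPM in old LPS and 193 and 219 CPM in young LPS, against 368 and 310.3 CPM in old control and 436 and 331 CPM in young control. Its log2 fold change was -0.93 ± 0.17 in young (adjusted p = 0.000179) and -0.45 ± 0.15 in old mice, where it missed the threshold (adjusted p = 0.0568). Ccdc39, which forms the molecular ruler with Ccdc40, had 400.4 and 332 CPM in old LPS and 270.4 and 289.8 CPM in young LPS, against 461 and 346 CPM in old control and 495 and 499.8 CPM in young control. It fell in young mice (-0.83 ± 0.15, adjusted p = 0.000289), while in old mice the groups overlapped (-0.17 ± 0.14, adjusted p = 0.558). The difference between the ages, 0.67 ± 0.21, was not called (adjusted p = 0.36), but was called without old LPS library 2 (0.79 ± 0.21, adjusted p = 0.0441). Its partner Ccdc40 was not called, with log2 fold changes of -0.07 ± 0.16 in old and 0.02 ± 0.18 in young mice. Lrrc23, listed with this group and known as a radial spoke component, had 189 and 176 CPM in old LPS and 176 and 128 CPM in young LPS, against 283 and 249.6 CPM in old control and 294 and 248 CPM in young control. It fell at both ages, by 0.56 ± 0.16 in old (adjusted p = 0.0197) and by 0.83 ± 0.18 in young mice (adjusted p = 0.00193) on the log2 scale.

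Cfap44, which with Cfap43 tethers an inner dynein to the doublet, had 300.0 and 292 CPM in old LPS and 267 and 273 CPM in young LPS, against 381 and 389 CPM in old control and 457 and 301 CPM in young control. It fell in young mice (-0.53 ± 0.16, adjusted p = 0.0362) and was not called in old mice (-0.38 ± 0.15, adjusted p = 0.123). Cfap43 overlapped between treatments, with log2 fold changes of -0.20 ± 0.15 in old and 0.18 ± 0.17 in young mice. Of the radial spoke head genes, Rsph4a had 237 and 271 CPM in old LPS and 241 and 169 CPM in young LPS, against 275 and 271 CPM in old control and 319 and 288 CPM in young control. It fell in young mice (-0.55 ± 0.17, adjusted p = 0.0369), and Rsph1 and Rsph9 were not called. Riiad1, a protein with a protein kinase A docking domain, had 871 and 1005 CPM in old LPS and 753 and 711 CPM in young LPS, against 1034 and 1102 CPM in old control and 1128 and 1066 CPM in young control. It fell in young mice (-0.59 ± 0.12, adjusted p = 0.00159) and had -0.19 ± 0.12 in old mice (adjusted p = 0.397).

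In the old mice, the transcripts of 2 further large axonemal proteins fell. Hydin, of the central pair, had 274 and 295 CPM in old LPS and 282 and 268 CPM in young LPS, against 407 and 374 CPM in old control and 343 and 265 CPM in young control, and was lower after LPS in old mice (-0.48 ± 0.14, adjusted p = 0.0267). In young mice its libraries overlapped (-0.17 ± 0.16, adjusted p = 0.601). Dnah6, an inner arm dynein heavy chain, had 229 and 271 CPM in old LPS and 220.2 and 246 CPM in young LPS, against 309.6 and 389 CPM in old control and 289 and 288 CPM in young control. Its log2 fold change was -0.47 ± 0.15 in old (adjusted p = 0.0431) and -0.32 ± 0.17 in young mice (adjusted p = 0.284). The outer arm heavy chains Dnah5 and Dnah9 overlapped between treatments, with log2 fold changes of -0.36 ± 0.15 and -0.13 ± 0.15 in old and 0.04 ± 0.16 and 0.33 ± 0.17 in young mice.

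Counted over all 36 members, each of which passed the filter on low counts, 1 rose and 5 fell after LPS in old mice, where 5.70% of 7907 genes tested rose and 3.53% fell. In young mice 1 rose and 8 fell, where 5.29% of genes rose and 3.28% fell. The 4 members called at both ages were Capsl, Dcdc2a, Lrrc23 and Sec14l3, and 11 were called at either age. The control libraries of an age enter only that age's comparison, while the fit shares 1 estimate of the spread. The 25 members called at neither age had log2 fold changes of -0.36 to 0.26 in old and -0.57 to 0.35 in young mice. The median member stood at -0.13 in old and -0.06 in young mice, beside medians over all genes tested of -0.01 and 0.003. Over both ages, the 4 LPS libraries lay wholly below the 4 control libraries for 11 members and wholly above for 2, beside 8.09% and 10.3% of all genes tested.

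**Figure D3:**
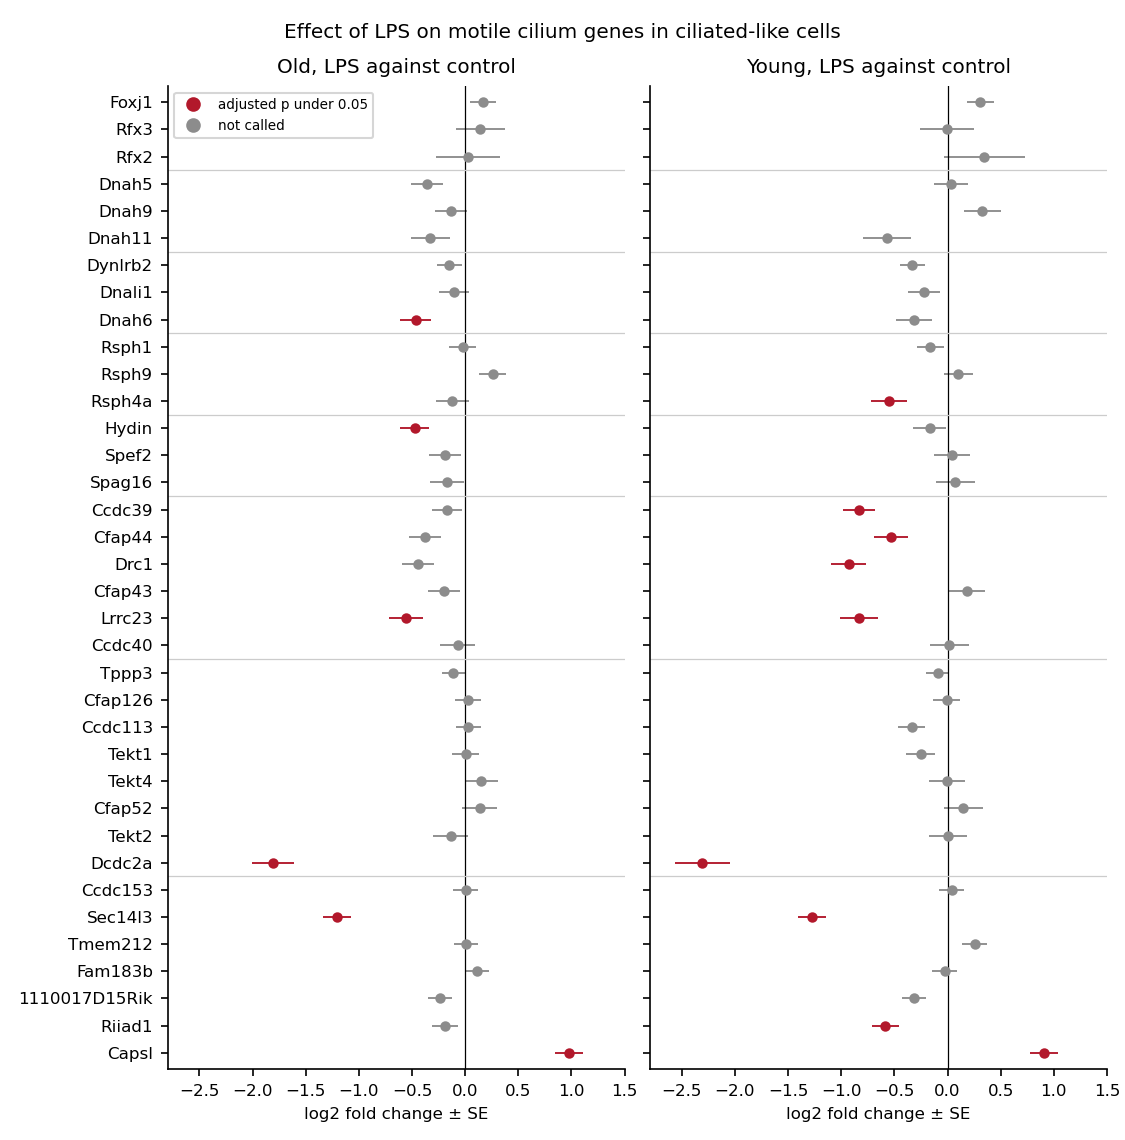
Log2 fold change of each member, LPS against control, in ciliated-like cells of old (left) and young mice (right), with bars of ± 1 SE; red points passed an adjusted p of 0.05. Capsl lies right of 0 at both ages and Dcdc2a, Sec14l3 and Lrrc23 lie left of it, while most other members lie within about 0.5 of 0.

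A comparison of the mean LPS effect over both ages, added after the data were seen, called 1 member higher and 13 lower, beside 9.64% and 7.71% of genes. It added Dynlrb2, 1110017D15Rik and Dnah11 to those above. Dynlrb2, a dynein light chain, had 1760.3 and 2067 CPM in old LPS and 1900.4 and 1837 CPM in young LPS, against 2091 and 2139.7 CPM in old control and 2357 and 2337 CPM in young control, with a mean log2 fold change of -0.24 ± 0.08 (adjusted p = 0.0393). 1110017D15Rik had 1350.1 and 1377 CPM in old LPS and 1398 and 1416 CPM in young LPS, against 1588 and 1623 CPM in old control and 1788 and 1705 CPM in young control, and -0.28 ± 0.08 (adjusted p = 0.0146). Dnah11, an outer arm heavy chain, had 116 and 94.5 CPM in old LPS and 98.5 and 76.5 CPM in young LPS, against 140.2 and 125 CPM in old control and 140.1 and 119 CPM in young control, and -0.45 ± 0.14 (adjusted p = 0.0277). Foxj1 missed the threshold (0.24 ± 0.09, adjusted p = 0.0551) and passed it with lane as a replicate block (0.24 ± 0.08, adjusted p = 0.0434). Over its alternatives the adjusted p ran from 0.0307 with the top 3% of doublet scores left out to 0.331 with DESeq2. It was 0.239 with library totals alone (0.15 ± 0.09) and up to 0.242 with a library left out.

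The calls of Capsl, Dcdc2a and Sec14l3 at both ages and of Ccdc39, Drc1 and Riiad1 in young mice held under all 18 alternatives. That of Lrrc23 in old mice was lost without old control library 1 (adjusted p = 0.378) and in young mice without young control library 1 or young LPS library 2 (up to 0.0832). Cfap44 was lost without young control library 1 or either young LPS library (up to 0.749), and Rsph4a without young control library 1 or young LPS library 2 (up to 0.420). Hydin and Dnah6 were lost without old control library 1, old LPS library 1 or old control library 2 (up to 0.359 and 0.422). With DESeq2, Lrrc23 at both ages, Cfap44, Rsph4a, Hydin and Dnah6 were not called. Cfap44, Rsph4a, Hydin and Dnah6 were also lost with at most 10% mitochondrial UMIs and with the top 3% of doublet scores left out, and Hydin and Dnah6 with all genes of at least 1 UMI. Over all 18 alternatives, the call was lost under 6 for Cfap44, 5 for Rsph4a, 7 for Hydin (up to 0.434) and 9 for Dnah6 (up to 0.505). Without old control library 1, the count in old mice was 1 higher and 2 lower. Scaled by library totals alone, which moved the median of all genes in old mice to -0.13 on the log2 scale, 1 member rose and 9 fell there. All genes then split into 360 higher and 496 lower, against 451 and 279 with TMM, and for the mean of both ages into 612 and 898, against 762 and 610.

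The levels of other marker lists in these cells stand beside these results. The summed level of the 13 other ciliated-cell markers was 9163 to 10307 CPM in LPS libraries and 5892 to 7064 CPM in control libraries, with no overlap. A few abundant genes can lead such a sum, and it was not split by gene. Not every marker followed it: Mns1, Spag17 and Ak7, which are among them, were called lower after LPS in young mice (values below). The 9 club cell markers, secretory genes such as Scgb1a1, summed to 8524 to 23081 CPM and 6909 to 13770 CPM, and the 11 AE2 markers to 4462 to 10379 and 6584 to 23275 CPM, with overlap in both. The 10 alveolar macrophage markers summed to 853 to 1007 CPM and 723 to 799 CPM, with no overlap, while 3 of them, Ear1, Marco and Siglecf, were at 0. The part of these markers in the members' differences was not tested. Summed over all 36 members, the level was 25432 ± 738 CPM in LPS libraries and 28536 ± 978 CPM in control libraries (SD, n = 4, both ages), and without Sec14l3 it was 24112 ± 675 and 25429 ± 925 CPM.

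No member was called between the ages in ciliated-like cells. In control mice, 0 of 36 were called between old and young, where 0.367% of genes were, and after LPS 0 of 36, where 1.13% were. For the difference of the LPS effect between the ages it was 0 of 36, beside 0.240% of genes. The largest age difference in controls was Dnah9, with 242 and 232 CPM in old control against 179 and 166 CPM in young control (0.46 ± 0.17, adjusted p = 0.434). After LPS it was Dcdc2a, with 47.8 and 78.7 CPM in old LPS against 36.7 and 41 CPM in young LPS (0.62 ± 0.28, adjusted p = 0.581). For Dnah9 the old control libraries lay above the young control libraries, and for Dcdc2a the old LPS libraries lay above the young LPS libraries. At an unadjusted p under 0.05, 4 members were higher and 0 lower in old controls, 3 higher and 0 lower in old mice after LPS, and 4 had a higher and 0 a lower LPS effect in old mice. The shares of all genes at this unadjusted p were not counted, so these counts do not show an age trend of the members. DESeq2 called 0 in each of the 3 comparisons. A p that misses the threshold does not show that the ages were alike.

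Genes of the wider cilium programme, from lists chosen for this purpose, moved in both directions after LPS. Of 33 tested genes of intraflagellar transport, which carries axoneme parts to the cilium tip, and of the BBSome, its cargo adaptor, 3 rose and 0 fell at each age, beside 5.70% and 3.53% of all genes tested in old and 5.29% and 3.28% in young mice; these shares also stand beside the list counts that follow. Ift172 rose most, with 744 and 577 CPM in old LPS and 780.2 and 727 CPM in young LPS, against 251 and 249.6 CPM in old control and 238 and 245 CPM in young control (log2 fold change 1.40 ± 0.14 in old, adjusted p = 1.61e-08, and 1.64 ± 0.15 in young, adjusted p = 8.63e-10). Wdr19 (0.79 ± 0.19) and Ift46 (0.59 ± 0.18) also rose in young mice, and Ift57 (0.75 ± 0.14) and Ift27 (0.52 ± 0.14) in old mice. Of 8 tested regulators of multiciliation, 1 rose and 1 fell in old mice and 0 rose and 1 fell in young mice. Myb, a transcription factor of early multiciliation, fell in both, with 96.7 and 106 CPM in old LPS and 131 and 107 CPM in young LPS, against 201 and 199.7 CPM in old control and 208 and 209 CPM in young control (adjusted p = 7.2e-05 in old mice, SE 0.17 on the log2 scale, and a log2 fold change of -0.79 ± 0.19, adjusted p = 0.0047, in young mice). Ccdc78, of the structures that multiply centrioles, rose in old mice (0.67 ± 0.15).

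Of 15 further dynein arm and docking genes, 0 were called in old mice (1 higher and 2 lower at an unadjusted p under 0.05; Dnah12, the most abundant, had -0.20 ± 0.19) and 1 fell in young mice, Dnaic1 (-0.69 ± 0.20). Of 15 genes for arm assembly in the cytoplasm, 0 were called in old mice (0 at an unadjusted p under 0.05; Cfap298 had 0.14 ± 0.13) and 1 fell in young mice, Zmynd10 (-0.59 ± 0.19). Of 27 further genes of the radial spokes, central pair and nexin links, 0 were called in old mice (3 higher and 4 lower at an unadjusted p under 0.05; Nme5 had 0.14 ± 0.13), and in young mice 1 rose (Cfap54, 0.67 ± 0.20) and 2 fell (Spag17, -0.60 ± 0.16, and Ak7, -0.48 ± 0.14). Of 16 genes for doublet and tip proteins, 1 rose in old mice (Cfap53, 0.57 ± 0.12) and 3 fell in young mice, Cfap161 (-0.99 ± 0.17), Mns1 (-0.69 ± 0.15) and 1700007K13Rik (-0.55 ± 0.13). Of 13 tubulin and tubulin-modifying genes, 1 fell in old mice (Ttll3, which adds glycine to tubulin, -0.66 ± 0.17) and 0 were called in young mice (0 higher and 1 lower at an unadjusted p under 0.05; Tubb4b had 0.01 ± 0.12). For the counts at an unadjusted p, the shares of all genes were not counted. In these 5 lists and the 2 above, the age comparisons called 1 gene, Tuba1a, an alpha tubulin, which was lower in old than in young mice after LPS (-0.52 ± 0.12, adjusted p = 0.0149). Of 19 tested interferon response genes, 10 rose in old and 15 in young ciliated-like cells, Gbp2, a GTPase of host defence, by 2.75 ± 0.39 and 6.09 ± 0.36 on the log2 scale.

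Outside ciliated-like cells the members were seen at low levels. In the 7997 AE2-like cells, 7054 member UMIs were counted, 80.1% of them from Sec14l3, Dynlrb2, Tppp3, Rsph9 and Rfx3. These UMIs were spread thinly: 47.0% of the cells had 0, 3 cells had at least 10, and the highest had 16. The median member stood at 0.0986% of its ciliated-like level, from 0.0442% (Hydin) to 6.70% (Rfx3). Whether these UMIs came from the cells or from free RNA was not tested. All but 5 of the 36 members lay below 1% in AE2-like cells. Ccdc153, abundant in ciliated-like cells, lay at 0.0708% and Foxj1 at 0.104%. The 5 members above 1% were Rfx3, Rfx2 (5.79%), Rsph9 (2.97%), Sec14l3 (1.57%) and Dynlrb2 (1.41%). After thinning, Dynlrb2 was seen in 5.58% and Sec14l3 in 6.67% of AE2-like cells, against 1.00% and 1.20% of alveolar macrophage-like cells, at median depths of 7078 and 4710.0 UMIs. Without thinning, these were 17.2% and 17.4% against 2.72% and 3.69%.

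**Figure D4:**
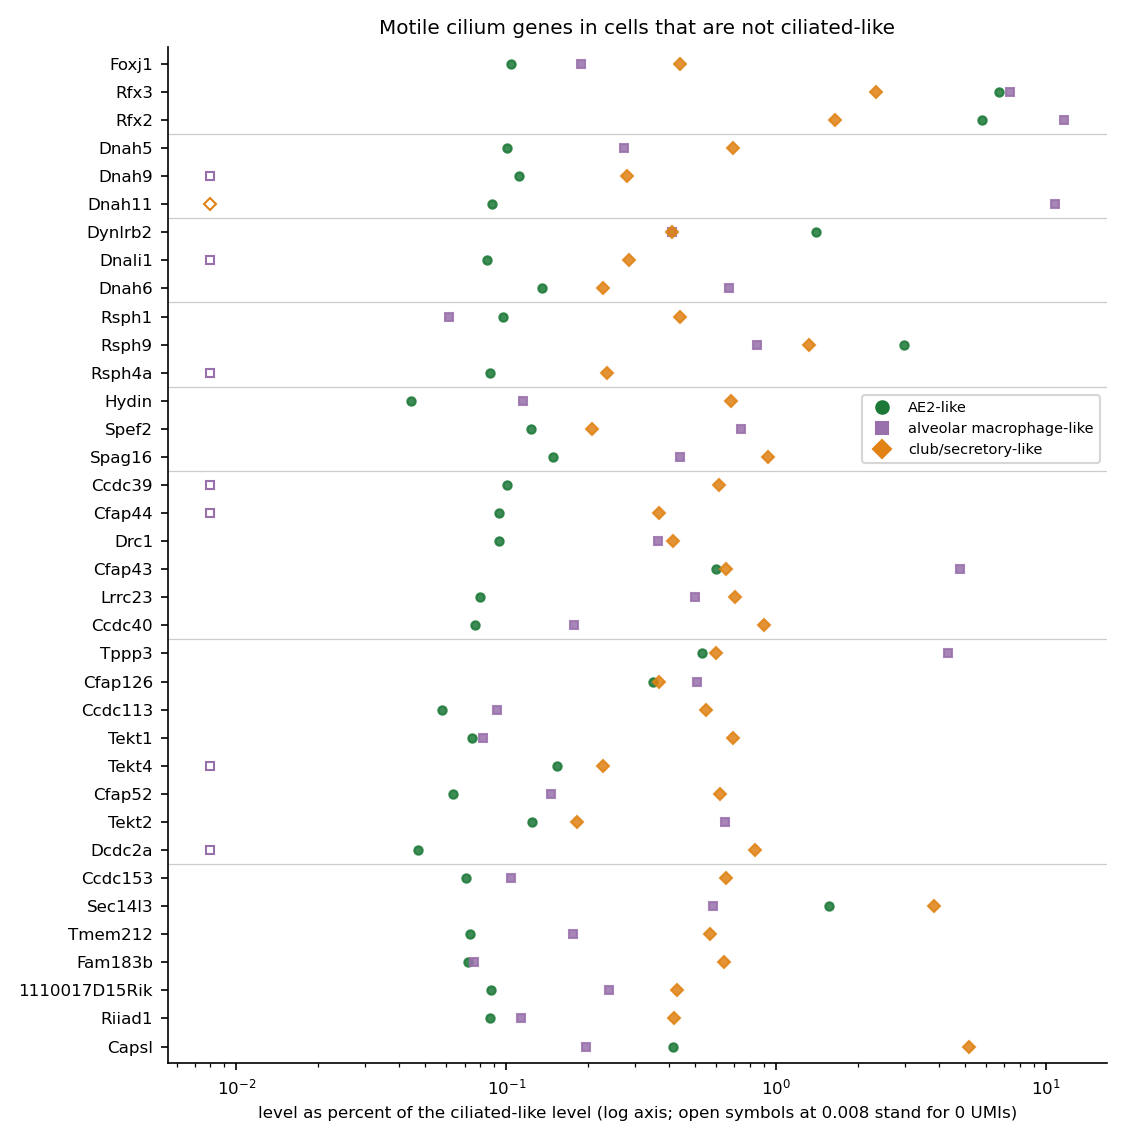
Level of each member in AE2-like (circles), alveolar macrophage-like (squares) and club/secretory-like cells (diamonds) as a percent of its ciliated-like level, on a log axis, with UMIs summed over 8 libraries; open symbols mark 0 UMIs. Most members lie below 1% in each class; Rfx2 and Rfx3 lie above it in all 3, Dnah11, Cfap43 and Tppp3 in macrophage-like cells, and Capsl in club-like cells. Of the 515 macrophage-like cells, 321 came from old control library 2. Of the 177 club/secretory-like cells, 69 came from old LPS library 1.

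Single members stood out in other classes as well. In 515 alveolar macrophage-like cells, Tppp3 had 406 UMIs and lay at 4.33% of the ciliated-like level, and after thinning it was seen in 24.9% of these cells against 3.62% of AE2-like cells (39.6% and 10.8% without thinning). Old control library 2 gave 321 of the 515 cells, so the pooled values of this class lean on 1 untreated library. Dnah11 had 35 UMIs there (10.8% of the ciliated-like level) and Cfap43 had 31 (4.77%), whereas Ccdc153 had 8 (0.104%) and Rsph4a 0. Dnah11 had 6 UMIs in the far larger pool of AE2-like cells. Tppp3 and Cfap43 were not particular to alveolar macrophage-like cells. They lay at 3.12% and 6.70% in 157 monocyte/macrophage-like cells (94 and 14 UMIs). In 75 neutrophil-like cells they lay at 1.45% and 9.27% (18 and 8 UMIs). In 177 club/secretory-like cells, Capsl lay at 5.19% and Sec14l3 at 3.84%, beside a median member of 0.582%. Old LPS library 1 gave 69 of these cells and 449 of their 807 member UMIs, so these pooled values lean on 1 treated library.

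In AE2-like cells 14 of the 36 members passed the filter on low counts, so the counts that follow are not over all members. The AE2-like class leaves out an unnamed cluster of 846 cells that scored highest for AE2 markers and came mostly from old LPS libraries. The filter needed 1.36 CPM in 2 libraries, and Rfx2 and 1110017D15Rik reached it in control libraries alone and Rsph1 in LPS libraries alone, so a difference in these 3 is favoured by the filter and the counts are a description. Of the 14, 0 rose and 5 fell after LPS in old mice, beside 23.0% and 20.3% of 11321 genes tested. In young mice 0 rose and 5 fell, beside 20.1% and 18.0%. At an unadjusted p under 0.05 there were 0 higher at either age, 9 lower in old and 6 lower in young mice, and DESeq2 called 0 higher at either age. The shares of all genes at this unadjusted p were not counted. Sec14l3 had 8.36 and 12 CPM in old LPS and 10.9 and 9.17 CPM in young LPS, against 61.9 and 56.4 CPM in old control and 60.3 and 50.7 CPM in young control. Its log2 fold change was -2.50 ± 0.16 in old (adjusted p = 8.38e-09) and -2.46 ± 0.17 in young mice (adjusted p = 1.27e-08). Tppp3 had 4.18 and 4.15 CPM in old LPS and 6.34 and 5.62 CPM in young LPS, against 25.3 and 30.3 CPM in old control and 32.1 and 45.3 CPM in young control, with -2.74 ± 0.21 (adjusted p = 5.52e-08) and -2.72 ± 0.19 (adjusted p = 2.2e-08). For both genes all LPS libraries lay far below all control libraries. Tppp3 fell in AE2-like but was not called in ciliated-like cells, and a test of that difference between classes was not run.

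The RFX factors had lower values in AE2-like cells after LPS. Rfx2, tested only because of its control libraries, had 1.01 and 1.32 CPM in old LPS and 1.1 and 1.03 CPM in young LPS, against 2.52 and 4.28 CPM in old control and 3.43 and 3.1 CPM in young control. All its LPS libraries lay under the filter's limit, and its fitted log2 differences, -1.53 ± 0.39 in old (adjusted p = 0.00519) and -1.59 ± 0.43 in young mice (adjusted p = 0.00831), are given as a description. Rfx3 had 4.47 and 3.95 CPM in old LPS and 3.17 and 3.32 CPM in young LPS, against 6.76 and 6.04 CPM in old control and 10.1 and 6.74 CPM in young control, and fell in young mice (-1.31 ± 0.27, adjusted p = 0.00126) but was not called in old mice (-0.61 ± 0.25, adjusted p = 0.0629). Cfap126 had 1.87 and 2.53 CPM in old LPS and 2.76 and 2.06 CPM in young LPS, against 4.24 and 5.92 CPM in old control and 4.41 and 4.31 CPM in young control, and fell at both ages (-1.19 ± 0.31, adjusted p = 0.00542 in old, and -0.86 ± 0.33, adjusted p = 0.0482 in young). Ccdc153 had 1.3 and 0.81 CPM in old LPS and 2.62 and 1.83 CPM in young LPS, against 3.62 and 1.76 CPM in old control and 2.45 and 1.89 CPM in young control, and fell in old mice (-1.35 ± 0.47, adjusted p = 0.0301), where both LPS libraries lay under that limit. By contrast Rsph9 libraries overlapped, with 15 and 16.6 CPM in old LPS and 14.5 and 12.7 CPM in young LPS, against 14.8 and 15.6 CPM in old control and 14.5 and 15.2 CPM in young control, and log2 differences of 0.06 ± 0.15 and -0.14 ± 0.16. Dynlrb2 had 13.5 and 29.7 CPM in old LPS and 17.9 and 21.1 CPM in young LPS, against 38.8 and 39.4 CPM in old control and 30.6 and 33.8 CPM in young control, and was not called (-0.82 ± 0.31 in old, adjusted p = 0.0788), though it was called there with lane as a replicate block (adjusted p = 0.0199).

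**Figure D5:**
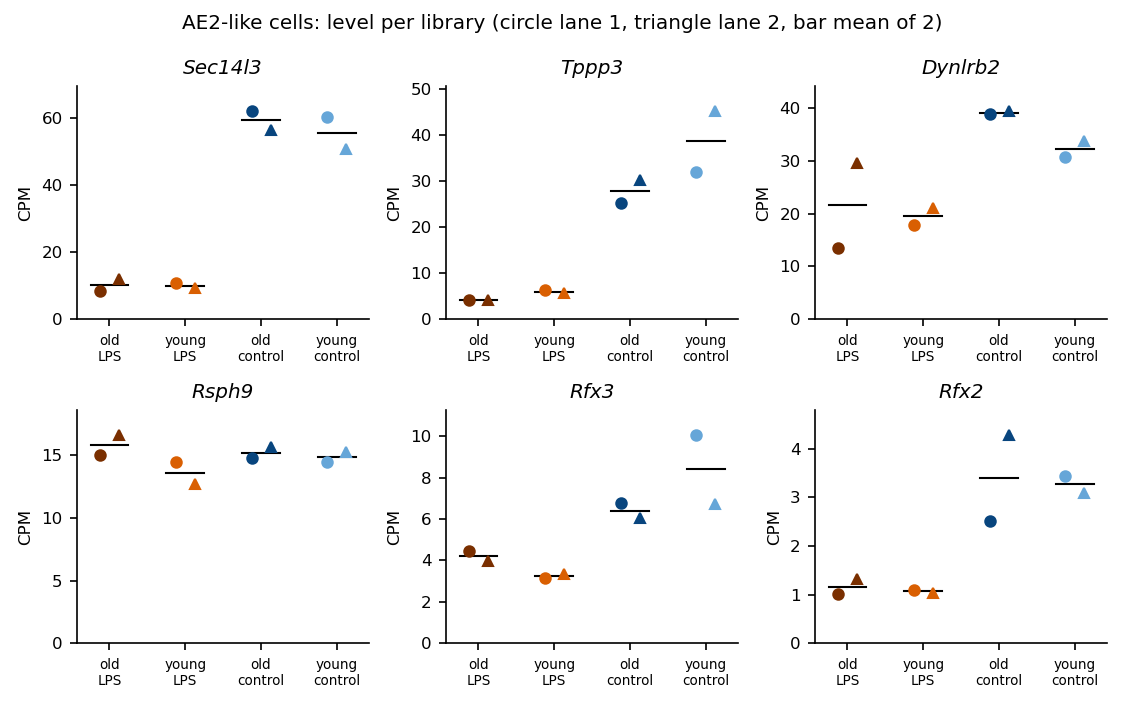
Level (CPM, axis from 0) of 6 members in AE2-like cells of each library, circles for lane 1 and triangles for lane 2, with bars at the mean of 2 libraries. Sec14l3, Tppp3, Rfx3 and Rfx2 lie lower in all LPS than in all control libraries, Dynlrb2 does so narrowly, and Rsph9 lies between 12.7 and 16.6 CPM throughout.

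Over both ages, 7 of the 14 lay wholly lower in LPS libraries and 0 wholly higher, beside 22.9% and 24.1% of genes; the 7 include Rfx2 and 1110017D15Rik. Summed over all 36 members the AE2-like level was 74.1 ± 9.92 CPM in LPS libraries and 178 ± 1.01 CPM in control libraries (SD, n = 4, both ages). Without Sec14l3, Tppp3, Dynlrb2, Rsph9 and Rfx3 the other 31 summed to 19.9 ± 4.85 and 29.8 ± 2.08 CPM. Their mean was 26.7 CPM in lane 1 and 23.0 CPM in lane 2. In libraries 1 and 2 they summed to 18.0 and 18.4 CPM in old LPS and 27.0 and 16.2 CPM in young LPS. In controls the sums were 29.7 and 30.2 CPM in old and 32.1 and 27.1 CPM in young mice, so lane 1 was higher in young mice only. Ciliated-like cells were fewer in lane 2 in every group, and a link to these sums was not tested. The 13 ciliated markers outside the list summed to 9.42 to 12.1 CPM in LPS and 9.45 to 15.4 CPM in control libraries. Beside these, the AE2 markers in AE2-like cells summed to 105790 to 159020 CPM in LPS and 316140 to 354930 CPM in control libraries, and the club cell markers to 12355 to 14112 and 3136 to 6114 CPM. Alveolar macrophage markers summed to 213 to 218 and 144 to 178 CPM, AE1 (alveolar type I) markers to 1744 to 2049.7 and 2239 to 2491 CPM, endothelial markers to 25.5 to 35.4 and 19.5 to 24.1 CPM, and B cell markers to 45.5 to 58.4 and 34.2 to 42.2 CPM, all without overlap between treatments. Of these lists, 1 of 10 alveolar macrophage, 1 of 7 B cell and 0 of 8 endothelial markers were detected in at least 20% of AE2-like cells. A sum can be led by 1 gene, and the sums were not split by gene, so they do not measure other cells in this class. The part of these markers in the members' differences was not tested. Without old control library 2 the count in old mice was 3, with Cfap126 (adjusted p = 0.0978) and Rfx2 (0.123) lost, and that of Ccdc153 was lost without old control library 1 or old LPS library 2 (up to 0.315). In young mice the count was 3 without young control library 2 or young LPS library 2, with Rfx2 (up to 0.0567) and Cfap126 lost, and that of Cfap126 was lost when any of 6 libraries was left out (up to 0.263). Over all 19 alternatives, Cfap126 in young mice was lost under 13 and Ccdc153 in old mice under 5. Between the ages, 0 of 14 were called by edgeR or DESeq2 in controls (0.433% of genes in edgeR), after LPS (3.00%) and for the difference of the LPS effect (0.495%), with 2, 1 and 1 lower and 0 higher at an unadjusted p under 0.05. Shares of all genes at that unadjusted p were not counted. After LPS, however, Dynlrb2 was called higher in old mice without old LPS library 1 (0.60 ± 0.13, adjusted p = 0.00844) and lower without old LPS library 2 (-0.54 ± 0.17, adjusted p = 0.0353). Those libraries held 13.5 and 29.7 CPM.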

How the data were processed

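The authors deposited UMI counts per gene and cell barcode, 1 table per library, already split by hashtag; per the submitters' processing notes, bcl2fastq, Cell Ranger 3.1.0, STAR, Seurat (3.1 and 3.1.5) and R 3.6.3 were used with build mm10. Members and gene lists were chosen with earlier results of these data known. Ensembl IDs were matched to symbols with RefSeq and gene name tables. Cells with at least 500 genes and at most 20% mitochondrial UMIs were kept (11245 of 14048 barcodes). Scrublet marked 13 doublets, too few for the caller to have worked, so leaving out the top 3% of scores was an alternative. No barcode was shared by libraries of 1 lane, and 2 barcode sequences occurred in both lanes. Clustering used 2000 variable genes without the members, 30 principal components, 20 neighbours and Leiden resolution 1 (scanpy 1.11.5, leidenalg 0.10.2, Python 3.11.15, scipy 1.17.1), which gave 22 clusters. A cluster was named from at least 3 detected markers and stayed unnamed where depth or leading genes went against the name. Cluster 3 (846 cells, mostly old LPS) scored highest for AE2 markers, with all 11 detected. It stayed unnamed and out of the AE2-like class because Hp, on the club list, was among its leading genes. It held 26.7% and 17.5% of the cells of old LPS libraries 1 and 2, against 4% and 3.45% in young LPS. The AE2-like values after LPS, and their age comparisons, leave out these cells.

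Counts were summed per library and class (269818 to 1681218 UMIs in ciliated-like and 4186148 to 9870341 in AE2-like cells). They were tested with edgeR's quasi-likelihood test (edgeR 4.0.16, limma 3.58.1, R 4.3.3). The settings were filterByExpr, TMM, 8 libraries in 1 fit, 4 residual degrees of freedom, Benjamini-Hochberg over all genes tested and threshold 0.05. The test was also run on counts simulated with 1 spread common to all genes and no lane effect. That run does not show how the test does where the spread varies by gene. Each SE of a log2 fold change was derived from this test, as the absolute log2 fold change divided by the square root of its F statistic. The common biological coefficient of variation was 0.109 in ciliated-like cells. DESeq2 1.42.0, other scalings, filters and cell sets, a replicate block and leaving out each library were alternatives. The labels say that a lane marks a separate run of the experiment, so same-numbered libraries are paired; their deviations from group means correlated at -0.00433 to 0.0594 in ciliated-like and -0.0382 to 0.146 in AE2-like cells. Named with values per library are the 3 regulators, the 10 most abundant members in ciliated-like cells, all members called, and the 5 most abundant in AE2-like cells; of other lists, up to 3 called genes with the largest change, or else the most abundant. Thinning drew 2000 UMIs per cell. PCR duplicates are removed by UMIs, and depth limits low genes such as Rfx2.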

Additional observations from a re-analysis of the deposited data

Results flagged for a closer look

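By the interaction test (edgeR's quasi-likelihood test), 0.240% of the 7907 genes tested in ciliated-like cells had an LPS effect that differed between the ages. Of 19 tested interferon response genes 4 did, each with a smaller LPS effect in old mice. Among them, the difference of the log2 fold changes, old minus young, was -2.81 ± 0.48 for Irf7 (adjusted p = 0.00458) and -2.75 ± 0.55 for Oasl2 (adjusted p = 0.0484). Both sides enter this difference. How the calls of these 4 genes held under the alternatives was not recorded. In controls, 17 of the 19 genes had higher estimates in old than in young mice (median log2 difference 0.63), with 0 called. After LPS, 12 were called lower in old mice (median -1.60), where 1.13% of all genes were called in either direction. For the motile cilium genes this test called 0 of 36.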

How the results depend on the processing

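Over 25 pairs of a called member and a comparison, 460 alternatives kept 405 calls, lost 55 and reversed 0, and 14 pairs were called under every alternative run. In ciliated-like cells of old mice the count of 6 members called after LPS was 3 with DESeq2, 10 with library totals alone and 3 to 7 with a library left out; the 9 called in young mice ranged from 6 to 12 (6 to 10 with a library left out). The difference between the ages had 0 to 1 with a library left out. The mean of both ages had 14, against 7 with DESeq2, 9 with all genes of at least 1 UMI and 8 to 14 with a library left out. In AE2-like cells the 5 called in young mice were 3 to 7 with a library left out. The 5 in old mice were 3 to 6 with a library left out, and 8 with members kept in the clustering, with the top 3% of doublet scores left out or with clusters named by score alone. The AE2-like class held 8848 cells with members kept and 8608 with the top 3% left out, against 7997 in the main setting. Naming by score alone adds the 846 cells of cluster 3. Naming by score alone was chosen after seeing the data, as was the mean of both ages. After LPS, age called 0 to 1 and the difference of the LPS effect 0 to 1 with a library left out. Over all genes in ciliated-like cells, DESeq2 called 303 where edgeR called 677 (young), 265 against 730 (old) and 614 against 1372 (mean of both ages). Over all alternatives, the 29, 89 and 19 genes of the 3 age comparisons ranged from 6 to 62, 26 to 149 and 3 to 51. In AE2-like cells the 4313 and 4894 genes called after LPS in young and old mice ranged from 2562 to 5205 and 3228 to 5579, and the 49, 340 and 56 of the age comparisons from 6 to 340, 65 to 1576 and 0 to 776. With lane as a replicate block, ciliated-like counts were 9 (young), 6 (old) and 15 (mean of both ages), and AE2-like counts 4 and 6. The block added Foxj1 for the mean of both ages (adjusted p = 0.0434) and Dynlrb2 in old AE2-like cells (0.0199), dropped Cfap126 in young AE2-like cells (0.0574) and changed no other call of a member. The cause of these shifts was not tested.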
